A study of Mus musculus with 4 samples.

Results

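Tenocyte precursor-like cells of the mouse fracture callus were taken from 4 scRNA-seq libraries by a rule on raw UMIs, the counts of distinct mRNA molecules. Kept cells held 4000 to 50000 UMIs, 2000 to 7000 genes and at most 8% mitochondrial UMIs. Among them, members had at least 2 UMIs of *Tnmd*, at least 1 of *Scx* and *Mkx* together, at least 3 of *Fmod* and none of *Ptprc*, the pan-leukocyte gene that encodes CD45. The rule found 1116 members among 25479 kept cells. They were set beside 6988 comparison cells, with at least 20 UMIs of *Col1a1* and none of *Tnmd*. As the rule used *Tnmd*, *Scx*, *Mkx*, *Fmod*, *Ptprc* and *Col1a1*, the levels of these genes are a description only.

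All groups were wild-type C57BL/6J mice, 3 months old, with a tibia fracture. Control mice received vehicle, and RA mice received K/BxN serum, which carries autoantibodies and induces inflammatory arthritis in recipients. Callus was collected 4 or 7 days after fracture (dpf), which gave the libraries control_4d, control_7d, RA_4d and RA_7d, 1 per condition. Each library came from 1 pool of calluses scraped along the periosteal surface and digested with collagenase, so there is no replicate of an animal. No test between conditions is therefore possible, and the intervals below cover counting error only. Values are listed for control_4d, control_7d, RA_4d and RA_7d, in this order, unless a library is named.

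Tenocytes are the fibroblasts of tendon, which lay down parallel fibrils of type I collagen. Scleraxis (*Scx*) and Mohawk (*Mkx*) are transcription factors of the tendon lineage, and tenomodulin (*Tnmd*) is a membrane glycoprotein of maturing tenocytes. Fibromodulin (*Fmod*) and keratocan (*Kera*) are small leucine-rich proteoglycans that bind collagen, and thrombospondin 4 (*Thbs4*) is a matrix protein of tendon and of muscle attachments. Tendons and ligaments insert into bone through or near the periosteum.

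Scleraxis is a basic helix-loop-helix factor, and factors of this family bind E-boxes, searched here as CANNTG, which reads the same on both strands. The RefSeq promoter table (build GRCm38.p6) held 5 of 8 tendon genes looked up, among them *Kera*, whose window is not shown. The windows of *Tnmd* and *Fmod*, genes of the rule, and of the marker *Thbs4* are shown. So is that of *Chodl*, which differed between RA and control mice. Each runs 5′ to 3′ on the strand of its gene, from 250 to 51 bases before the start, with E-box letters in capitals.
Tnmd, chrX:133850758-133850957, plus strand: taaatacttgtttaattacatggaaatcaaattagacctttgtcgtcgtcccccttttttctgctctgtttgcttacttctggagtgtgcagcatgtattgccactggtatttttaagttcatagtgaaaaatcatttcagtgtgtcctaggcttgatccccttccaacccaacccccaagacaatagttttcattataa
Fmod, chr1:134037004-134037203, plus strand: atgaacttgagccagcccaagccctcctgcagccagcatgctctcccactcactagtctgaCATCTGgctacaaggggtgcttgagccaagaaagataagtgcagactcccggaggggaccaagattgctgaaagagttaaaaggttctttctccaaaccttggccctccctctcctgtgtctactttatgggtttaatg
Thbs4, chr13:92794869-92795068, minus strand: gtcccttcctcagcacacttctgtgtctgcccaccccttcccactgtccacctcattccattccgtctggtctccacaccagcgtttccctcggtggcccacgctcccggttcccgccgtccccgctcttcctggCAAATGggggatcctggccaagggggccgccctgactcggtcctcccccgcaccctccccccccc
Chodl, chr16:78930698-78930897, plus strand: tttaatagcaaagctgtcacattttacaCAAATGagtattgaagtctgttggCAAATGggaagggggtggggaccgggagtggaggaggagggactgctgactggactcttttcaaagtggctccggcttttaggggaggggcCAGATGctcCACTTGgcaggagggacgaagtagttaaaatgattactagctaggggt
The *Tnmd* window held no CANNTG, the *Fmod* and *Thbs4* windows held 1 each, at 189 and 115 bases before the start, and the *Chodl* window held 4. Of 32851 promoter windows of the same length, 59.0% held at least 1. These matches are letters only, and binding was not measured.

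The members of the 4 libraries numbered 145, 421, 90 and 460 and held 3643409, 11026869, 1857410 and 11021500 UMIs in all. Their median was 24682, 25653, 18522.5 and 22711 UMIs per cell, against 32259, 23809.5, 30940 and 24322 in comparison cells. RA_4d had the fewest members and the lowest depth, and its values are the least precise. RA_4d also stood apart in hemoglobin RNA, which free red blood cell RNA can bring to any cell. A UMI of *Hbb-bs*, a beta globin, was found in 73.1%, 81.9%, 7.78% and 87.0% of members. Myeloid cells, taken as those with at least 1 *Ptprc* and 2 *Cd68* UMIs, gave 72.4%, 81.0%, 6.42% and 84.8%. The part of this RNA in the values of RA_4d was not tested, and the comparison of RA_7d with control_7d does not use RA_4d.

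The rule was applied step by step. At least 2 *Tnmd* UMIs were held by 238, 789, 143 and 788 kept cells, and 167, 567, 106 and 539 of these also had at least 3 *Fmod* UMIs. A further UMI of *Scx* or *Mkx* left 156, 470, 100 and 487 cells, and 11, 49, 10 and 27 were then removed for *Ptprc*. Myeloid cells, which should lack tendon genes, had at least 2 *Tnmd* UMIs in 0.143%, 1.51%, 0.381% and 1.62% of cases. Scrublet called 21 members doublets (1.88%), none of them in control_4d or RA_4d, against 2.39% of kept cells. No barcode was shared between members of different libraries, while 66 were shared among kept cells of the library pairs.

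Cells just outside a threshold of the rule carried less of the markers *Kera* and *Thbs4* than members just inside it. The 45 members with exactly 2 *Tnmd* UMIs had a *Kera* UMI in 24.4% of cases, and the 111 cells with 1 that otherwise met the rule in 12.6%. Their summed *Thbs4* levels were 1277 and 886 CPM, the UMIs of a gene when all UMIs of the sum are scaled to 1000000. For *Fmod*, 30 members with 3 UMIs and 34 cells with 2 gave 1214 and 1038 CPM of *Thbs4*. For *Scx* and *Mkx* together, 120 members with 1 UMI and 144 cells with none gave 1316 and 1045 CPM.

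Tenocyte precursor-like cells were a small share of the callus at 4 dpf and a larger one at 7 dpf. They made up 2.65% (2.24 to 3.11) of kept cells in control_4d, with the 95% exact Clopper-Pearson interval in parentheses, and 5.48% (4.99 to 6.02) in control_7d. The shares were 2.19% (1.76 to 2.68) in RA_4d and 5.59% (5.11 to 6.11) in RA_7d. From 4 to 7 dpf the share was multiplied by 2.07 (1.71 to 2.52) in control and 2.55 (2.03 to 3.24) in RA. RA over control was 0.826 (0.628 to 1.08) at 4 dpf and 1.02 (0.892 to 1.17) at 7 dpf, and both intervals include 1. With the looser cell filter (at least 1000 UMIs and 500 genes, at most 15% mitochondrial UMIs) the 4 dpf ratio was 0.748 (0.58 to 0.96), an interval below 1.

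The rise with time depended on the denominator. Among *Col1a1*-high, *Ptprc*-negative cells and members together, the shares were 15.2%, 13.8%, 11.9% and 11.4%. There the ratios of 7 over 4 dpf were 0.905 (0.748 to 1.10) in control and 0.961 (0.765 to 1.22) in RA. RA over control was 0.78 (0.593 to 1.02) at 4 dpf and 0.828 (0.724 to 0.947) at 7 dpf. A share cannot tell more members from fewer other cells.

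**Figure D1:**
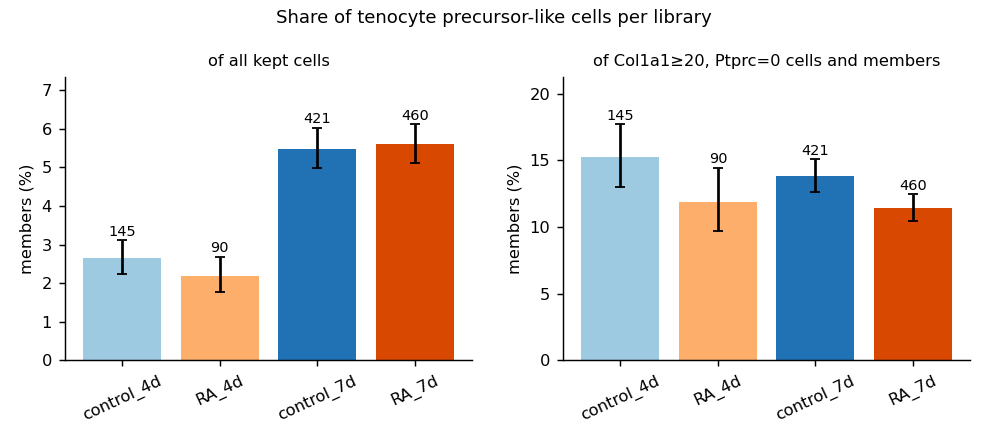
Share of tenocyte precursor-like cells per library, in percent of all kept cells (left) and of *Col1a1*-high, *Ptprc*-negative cells and members together (right). Bars are shares, error bars are exact Clopper-Pearson intervals and the number above each bar is the number of members. At left both 7 dpf libraries stand above both 4 dpf libraries, and at right the bars lie between 11.4% and 15.2%.

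The markers *Kera* and *Thbs4*, which the rule did not use, had higher summed levels in members than in comparison cells. Members were chosen with earlier results of these data known, so these levels are a description and no independent test of the tendon label. *Kera* was at 1373, 313, 581 and 718 CPM in members and at most 8.06 CPM in comparison cells. *Thbs4* was at 6139, 2176, 9473 and 3923 CPM in members and at 239, 358, 370.2 and 362 CPM in comparison cells. The 2 markers were higher in the members of every library, *Kera* by at least 4.64 and *Thbs4* by at least 2.57 on the log2 scale, with 10 CPM added to each level. In control_7d a *Kera* UMI was found in 39.7% of members and a *Thbs4* UMI in 92.6%. The tenth of control_7d members with most *Kera* held 65.8% of its UMIs.

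The genes of the rule are given for their levels. *Tnmd* was at 1389.6, 903, 973 and 1222 CPM and *Scx* at 276, 185, 276 and 249 CPM. *Mkx* was at 187, 80.3, 262 and 167 CPM and *Fmod* at 4464.5, 1422, 6416 and 2708 CPM. In each of these genes, and in *Kera* and *Thbs4*, control_7d was the lowest library. The median member held 26, 16, 14 and 22 *Tnmd* UMIs, well above the 2 that the rule asked for.

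**Figure D2:**
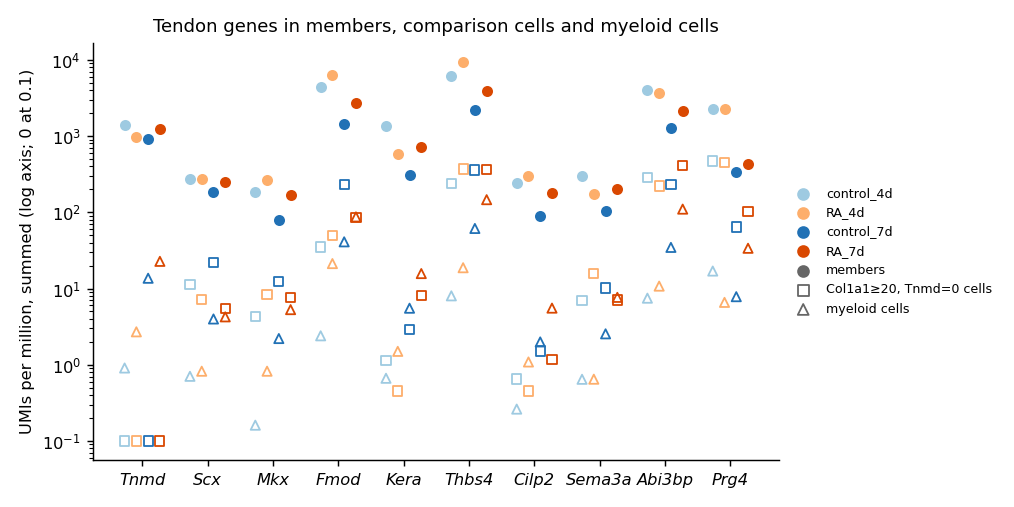
Summed levels of tendon genes in members (filled circles), comparison cells (open squares) and myeloid cells (open triangles), in CPM on a log axis, with 0 drawn at 0.1. Colours are libraries. For each gene shown, the members of a library lie above the comparison cells and myeloid cells of that library.

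Several matrix genes were among those highest in members against other collagen-producing cells. Of 3205 genes that reached 50 CPM in the members or the comparison cells of every library, 29 were higher in members by at least 1 on the log2 scale in all 4 libraries (0.905% of genes tested) and 52 were lower (1.62%). The cells were chosen by their values, so these counts are a description. *Cilp2*, a cartilage intermediate layer protein, was at 239, 88.2, 302 and 178 CPM and at most 1.52 CPM in comparison cells. *Sema3a*, a secreted guidance cue, was at 301, 105, 174 and 202 CPM, against 6.93 to 15.6 CPM. *Abi3bp*, an extracellular matrix protein, was at 4001, 1285, 3662 and 2119.6 CPM, against 222 to 414 CPM. In these genes every member sum lay above every comparison sum. *Prg4*, which encodes the lubricant lubricin, was at 2249.8, 336, 2294 and 426 CPM, against 472, 64.0, 448 and 102 CPM, so its 7 dpf members lay below the comparison cells of 4 dpf.

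The next genes in this order were *Gas2*, *Crispld2*, *Cpxm2*, *Cacnb2*, *Matn4*, *Eya2*, *Col8a2*, *Rflnb* and *Mfap4*. Their lowest log2 ratio over the libraries lay between 1.39 (*Mfap4*) and 1.94 (*Gas2*). *Matn4* encodes a matrilin, a linker of matrix networks, and was at 177, 200.1, 169 and 242 CPM, against 5.98 to 63.4 CPM in comparison cells. *Eya2*, a transcriptional co-activator, was at 92.5, 57.0, 179 and 70.1 CPM, against 5.15 to 14.0 CPM. *Cacnb2*, a calcium channel subunit, was at 89.5, 58.2, 101 and 91.8 CPM, against 6.19 to 13.6 CPM. The members and comparison cells did not overlap in these 3 genes.

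Genes lower in members included markers of other fibroblasts and inflammatory genes. *Pi16*, a marker of fibroblast precursors, was at 2.74, 2.45, 4.31 and 14.8 CPM in members and 202, 55.1, 56.6 and 236 CPM in comparison cells. *Cxcl5*, a neutrophil chemokine, was at 3.02, 13.3, 21.0 and 10.3 CPM, against 157, 123, 299 and 110.2 CPM. The groups did not overlap in either gene. *Plac8*, *Efemp1*, *Gas7*, *Ly6c1*, *Emilin2*, *Ifi204*, *Slfn5* and *Ifi205* completed the 10 lowest, and over all 10 the highest log2 ratio of a gene lay between -2.52 (*Plac8*) and -1.74 (*Ifi205*). Comparison cells had a *Ptprc* UMI in 8.10%, 9.69%, 8.70% and 6.40% of cases. With *Ptprc*-negative comparison cells alone, 31 genes were higher and 53 lower in members.

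Gene lists gave these differences an order. Over all genes tested, the median log2 ratio of members over comparison cells was -0.069, -0.037, -0.096 and -0.011, and 0.905% were higher and 1.62% lower in every library. Of 10 tendon differentiation genes tested outside the rule, 6 were higher in every library and none lower, with list medians of 3.14, 1.44, 2.74 and 1.92. They were *Kera*, *Thbs4*, *Cilp2*, *Cpxm2*, *Matn4* and *Clec11a*. *Comp*, cartilage oligomeric matrix protein, differed by 3.81 in control_4d but by 0.13 in control_7d. Of 5 tendon transcription factors tested outside the rule, 1 was higher, *Eya2*, with medians of -0.04, -0.05, 0.39 and 0.23. *Egr1*, a factor that drives tendon collagen genes, differed by 1.05 in control_4d and by -0.05 in control_7d.

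Small leucine-rich proteoglycans had 2 of 9 genes higher in every library, *Kera* and *Ogn*, with medians of 1.69, 0.45, 1.71 and 0.98. Over all genes tested, 0.905% were higher and 1.62% lower in every library. *Ogn*, osteoglycin, was at 1693, 1203, 1724 and 1395 CPM, against 383 to 515 CPM in comparison cells. *Dcn*, decorin, was at 13552, 3022, 8343 and 6472 CPM and differed by 0.42 to 1.69. *Lum*, lumican, and *Bgn*, biglycan, stayed within 1 in every library. Collagens as a list did not stand apart. Of 20 tested, 1 was higher (*Col8a2*) and 1 lower (*Col5a3*), with medians of 0.09, -0.06, -0.10 and -0.03.

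Lists of other fibroblasts lay on the low side, and the list of committed progenitors did not. Over all genes tested, 0.905% were higher and 1.62% lower in every library. Of 8 fibroblast precursor genes tested, 6 were lower in the members of every library and none higher, with medians of -2.12, -1.34, -1.82 and -1.64. They were *Pi16*, *Ly6c1*, *Cd34*, *Fbn1*, *Ly6a* and *Mfap5*. Of 10 tendon sheath genes, 2 were higher (*Prg4* and *Abi3bp*) and 2 lower (*Cd34* and *Ly6a*), with medians of -0.96, -0.54, -0.67 and -0.62. Of 10 callus fibroblast genes, 2 were lower (*Dpt* and *Clec3b*). Of 15 genes of the NF-κB and inflammation list, 4 were lower (*Cxcl1*, *Cxcl2*, *Cxcl5* and *Il1r1*), with medians of -1.92, -0.87, -1.19 and -1.56. Of 10 committed progenitor genes, 1 was higher (*Edil3*) and none lower, with medians of 0.55, 0.69, 0.20 and 0.72. Of 4 chondrogenic genes tested, 1 was lower (*Sox5*), with medians of 0.85, -0.41, 0.79 and 0.22. The oxidative phosphorylation (28 tested), TGF-β (18), immediate early (19) and collagen processing (25) lists had no gene past this fold in all 4 libraries.

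Similar cells were drawn by markers from *Ptprc*-negative comparison cells. Fibroblast precursors had at least 2 UMIs of *Pi16* and *Dpp4*, chondrogenic cells at least 3 of *Col2a1* and *Acan*, and committed progenitors at least 3 of *Aspn* and 10 of *Postn*. *Kera* reached at most 4.24, 11.5 and 9.75 CPM in them, and *Cilp2* at most 4.24 CPM. The 2 genes thus marked members against each of these cell groups, all of which lack *Tnmd* by definition. Cells with 1 *Tnmd* UMI that otherwise met the rule are in none of them, and 12.6% of those cells had a *Kera* UMI. *Thbs4* lay between 243 and 527 CPM and did not order the 3 groups. *Comp* was at 2401 and 2441 CPM in the chondrogenic cells of control_7d and RA_7d, above the members of these libraries at 798 and 856 CPM. *Fmod*, a gene of the rule, reached 724 and 513 CPM in these chondrogenic cells.

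The first comparison within members asks how the cells differ between RA and control mice. A gene is past the fold when its summed level differs by at least 1 on the log2 scale. Counts cover genes outside the rule that reached 50 CPM in either library. At 4 dpf, 78 of 3557 genes were higher in RA (2.19%) and 37 lower (1.04%). At 7 dpf, 50 of 3549 were higher (1.41%) and 21 lower (0.592%). The median log2 ratio over all genes tested was 0.0 and -0.027. TMM scaling shifted the 4 dpf comparison by 0.143, and with it 49 genes were higher and 56 lower there. In bulk sums, fewer cells that express a gene and less RNA per cell cannot be told apart.

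Of 3247 genes tested at both times, 11 were higher in RA at both, none was lower at both, and 8 went opposite ways. *Col22a1*, a collagen of the myotendinous junction, where muscle fibers join tendon, was at 19.8, 13.3, 142 and 64.6 CPM. Both RA libraries lay above both control libraries. RA over control was 7.19 (5.52 to 9.47) at 4 dpf and 4.85 (4.05 to 5.83) at 7 dpf, and comparison cells held at most 1.12 CPM. *Chodl*, chondrolectin, a membrane lectin also known from muscle, was at 85.6, 29.7, 268 and 125 CPM. It too was highest in the RA libraries, with ratios of 3.12 (2.71 to 3.61) and 4.22 (3.74 to 4.78), and comparison cells held at most 1.36 CPM.

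*Dgkb*, a diacylglycerol kinase, was at 32.7, 19.0, 166 and 78.9 CPM, with log2 ratios of 2.04 and 1.61. *Kirrel3*, an adhesion molecule of the nephrin family, was at 34.0, 22.8, 125 and 90.6 CPM, with log2 ratios of 1.62 and 1.62. In the comparison cells the log2 ratios were -0.40 and 0.24 for *Dgkb*, and 0.16 and -0.14 for *Kirrel3*. The rises of these genes were thus not seen in comparison cells, which held at most 8.92 CPM of *Dgkb* and 16.5 CPM of *Kirrel3*.

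*Itih5*, a hyaluronan-associated protein, was at 22.0, 12.3, 96.4 and 50.4 CPM, and 1 member held 34.6% of its UMIs in control_7d and 1 member 24.6% in RA_4d. Without the member that held most of its UMIs in each library, *Itih5* was under 50 CPM at 7 dpf, at 47.1 CPM, with a log2 ratio of 1.66. *Sparcl1*, a matricellular protein, was at 23.1, 23.2, 131 and 68.0 CPM, with 36.2% of the RA_4d UMIs in 1 member. *Gadd45a*, a stress response gene, was at 77.4, 28.7, 193 and 79.3 CPM. *Atp6v0a4*, a proton pump subunit, was at 60.1, 17.0, 136 and 55.7 CPM. For *Itih5* and *Sparcl1* both RA libraries lay above both control libraries, while RA_7d lay close to control_4d in *Gadd45a* and below it in *Atp6v0a4*.

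The other 3 genes higher at both times were *Col4a1*, *Col4a2* and *Lama2*, which were named after their values were seen. *Col4a1* and *Col4a2* encode basement membrane collagen chains, with log2 ratios of 1.08 and 1.00, and of 1.00 and 1.02. *Lama2*, a laminin chain of muscle basement membrane, had 1.11 and 1.00. Without the member that held most UMIs of the gene, *Col4a2* and *Lama2* were just under the fold at 4 dpf, both at 0.97. In comparison cells the 7 dpf log2 ratios were 0.88, 0.83 and 1.01, close to those of members. The 3 genes lay at the edge of the fold at both times.

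The share of members with a UMI gave the same order for *Col22a1* but not for *Chodl*. *Col22a1* was found in 7.59%, 5.70%, 25.6% and 17.2% of members, and in 5.34%, 3.92%, 22.5% and 12.6% after cells were thinned to 10000 UMIs. *Chodl* was found in 40%, 10.9%, 60% and 31.5%, and in 26.7%, 6.86%, 55% and 23.6% after thinning, so that RA_7d lay below control_4d in this share. Myeloid cells, with median depths of 15626.5, 12201.5, 16294 and 12902 UMIs, had a *Col22a1* UMI in at most 0.381% and a *Chodl* UMI in at most 1.03% of cases. *Col22a1* was thus a gene of few members. Those with at least 3 of its UMIs numbered 7, 14, 15 and 48 and held 91.7 to 95.8% of its UMIs.

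**Figure D3:**
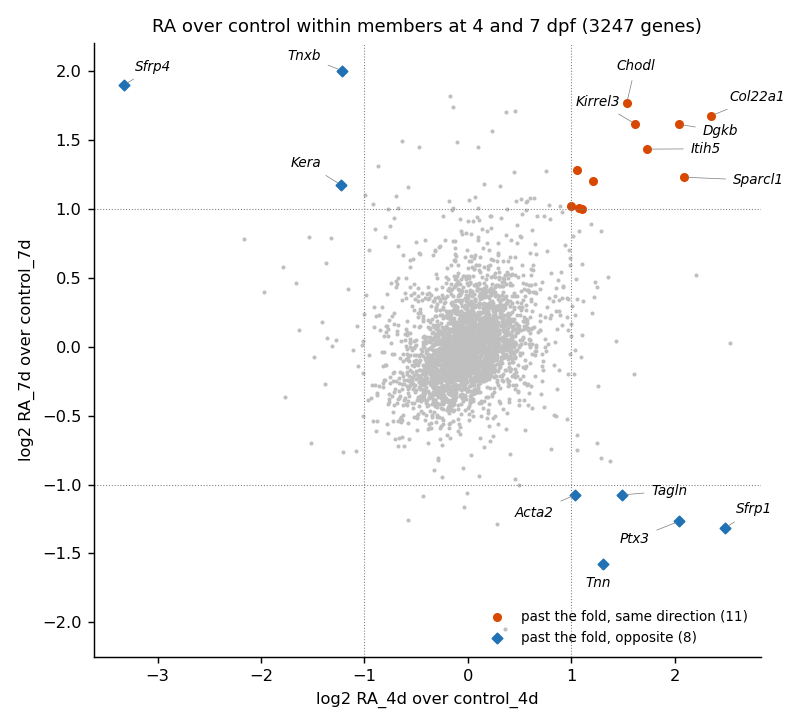
Log2 ratio of summed levels in members, RA over control, at 4 dpf (x axis) and 7 dpf (y axis), for the 3247 genes tested at both times, with dotted lines at the fold. Orange circles are the 11 genes past the fold in the same direction, all higher in RA, and blue diamonds the 8 that went opposite ways, among them *Kera*.

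No gene was past the fold and lower in RA at both times. Of the genes named for the same direction at both, *Fkbp11*, a peptidyl-prolyl isomerase of the secretory pathway, was at 153, 276, 60.8 and 158 CPM, with log2 ratios of -1.20 and -0.77. *C1qtnf3*, a secreted C1q-related protein, was at 402, 1402, 134 and 859.6 CPM, with -1.52 and -0.70. *Nfatc2*, a calcium-regulated transcription factor, was at 88.4, 155, 36.6 and 87.6 CPM, with -1.08 and -0.76. Each RA library lay below the control library of its day in these genes, which passed the fold at 4 dpf alone. *Csrp2*, *Col8a1*, *Itm2a*, *Selenoh* and *Mest* had log2 ratios between -0.77 and -0.63, under the fold at both times.

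*Kera* differed in opposite directions. RA over control was 0.423 (0.396 to 0.452) at 4 dpf and 2.30 (2.21 to 2.39) at 7 dpf. A *Kera* UMI was found in 81.4% (74.1 to 87.4), 39.7% (35.0 to 44.5), 67.8% (57.1 to 77.2) and 78.3% (74.2 to 81.9) of members, and in 77.9%, 33.6%, 63.8% and 74.8% after thinning. Control_7d stood below the other libraries in both measures. At most 4.34% of myeloid cells had a *Kera* UMI.

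Several rises in RA_4d rested wholly or in part on single members. Of the 78 genes higher in RA at 4 dpf, 30 were no longer counted when the member with most UMIs of the gene was left out of each library. Of these, 24 were under the fold and 6 were past it but under 50 CPM. Some of the 24 stayed just under the fold, such as *Gphn* at 0.99 and *Col4a2* at 0.97. Others lost the rise, such as *Acta2* at -0.11 and *Spp1* at -0.48. At 7 dpf 3 of 50 were no longer counted, 1 of them under the fold. In the interferon list, 4 of 11 genes tested were higher at 4 dpf (*Isg15*, *Ifit1*, *Rsad2* and *Cxcl10*) and 1 lower (*Ifi27l2a*), and none of 6 was past the fold at 7 dpf. *Ifit1* and *Cxcl10* were among those under 50 CPM. In RA_4d, 1 member held 53.4% of the *Rsad2* UMIs, 51.7% of those of *Isg15* and 54.7% of those of *Cxcl10*. It also held 52.8% of the *Ccl5* UMIs and 47.3% of the *Ccl2* UMIs, both chemokine genes. Another member held 92.5% of the *Myh11* UMIs, 62.2% of those of *Acta2* and 48.4% of those of *Tagln*, genes of smooth muscle contraction. These 2 members held 9 and 3 UMIs of *Tnmd* and none of *Kera*.

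Tendon differentiation genes were past the fold in both directions at 4 dpf and in 1 direction at 7 dpf. Over all genes tested, 2.19% were higher and 1.04% lower at 4 dpf, and 1.41% and 0.592% at 7 dpf. Of 15 tendon differentiation genes tested at 4 dpf, 3 were higher in RA (*Chodl*, *Col22a1* and *Kcnk2*) and 1 lower (*Kera*), with a median of 0.20. At 7 dpf 4 of 13 were higher (*Kera*, *Chodl*, *Ptx4* and *Col22a1*) and none lower, with a median of 0.80, against 0.01 for the list in comparison cells. Without the member with most of its UMIs in each library, *Kcnk2* was under 50 CPM at 4 dpf, with a log2 ratio of 1.13. *Cilp2* and *Thbs4* had 0.94 and 0.85 at 7 dpf, under the fold. The genes of the rule had 0.43 for *Tnmd*, 0.41 for *Scx*, 0.97 for *Mkx* and 0.92 for *Fmod*. Small leucine-rich proteoglycans had medians of -0.49 and 0.37. *Dcn* had -0.70 at 4 dpf and 1.10 at 7 dpf, and comparison cells had -0.39 and 1.05.

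Collagens were past the fold in both directions at 4 dpf and in 1 direction at 7 dpf. They had 4 of 21 higher and 2 lower in RA at 4 dpf, and 3 of 26 higher and none lower at 7 dpf. Of all genes tested, 2.19% and 1.41% were higher and 1.04% and 0.592% lower. The collagen medians were -0.59 at 4 dpf and 0.06 at 7 dpf, against 0.05 and -0.14 in comparison cells. *Col22a1*, *Col4a1* and *Col4a2*, given above, were the collagens higher at both times. *Col3a1*, the fibril collagen of loose tissue and repair, differed by -1.27 and 0.05. Of the insulin-like growth factor genes, 2 of 9 were lower at 4 dpf (*Igf2* and *Igfbp3*) and 2 of 8 higher at 7 dpf. These were the binding proteins *Igfbp5* and *Igfbp6*, by 1.31 and 1.10, against 1.31 and 0.81 in comparison cells. Of the Wnt genes, *Sfrp1* and *Sfrp2* were higher and *Sfrp4* and *Dkk2* lower at 4 dpf, of 6 tested. When the member with most UMIs of the gene was left out of each library, *Sfrp2*, *Col4a2* and *Col18a1* were under the fold at 4 dpf. Their log2 ratios were then 0.47, 0.97 and 0.95, and *Igf2* was under 50 CPM. The 4 Wnt genes encode secreted modulators of the pathway. At 7 dpf *Sfrp4* was higher and *Sfrp1* lower, of 5 tested.

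Inflammatory genes were past the fold in both directions at 4 dpf and in 1 direction at 7 dpf. Of all genes tested, 2.19% were higher and 1.04% lower at 4 dpf, and 1.41% and 0.592% at 7 dpf. In the NF-κB and inflammation list, 1 of 12 was higher (*Ccl2*) and 2 lower (*Cxcl1* and *Lcn2*) at 4 dpf, with a median of 0.01. At 7 dpf 1 of 11 was higher, with a median of 0.06. This was *C3*, a complement component, at 375, 89.4, 393 and 201 CPM, with a log2 ratio of 1.08 in members and 2.28 in comparison cells.

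At 7 dpf some fibroblast genes were higher and some bone genes lower in RA members, where 1.41% of all genes tested were higher and 0.592% lower. Of 9 callus fibroblast genes tested, 4 were higher (*Cygb*, *Gsn*, *Clec3b* and *Apod*) and none lower, with a median of 0.42, against 0.94 in comparison cells. *Gsn*, gelsolin, an actin-severing protein, was at 812, 239, 1206 and 506 CPM. Of 6 fibroblast precursor genes, 2 were higher (*Ly6c1* and *Cd34*), with a median of 0.83, against 0.95. Without the member with most of its UMIs, *Ly6c1* was just under the fold, at 0.94. Of 5 osteogenic genes, 2 were lower (*Runx2* and *Ibsp*), with a median of -0.97, against -1.12. *Runx2* was at 77.4, 202, 113 and 95.6 CPM and *Ibsp*, bone sialoprotein, at 0.274, 96.0, 0 and 11.6 CPM, so both were highest in control_7d. In control_7d, 1 member held 39.0% of the *Ibsp* UMIs.

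Protease and inhibitor genes past the fold were higher in RA, at 7 dpf alone, while matricellular genes were past it in both directions. Of all genes tested at 7 dpf, 1.41% were higher and 0.592% lower. The collagenase gene *Mmp13* was at 32.7, 131, 46.3 and 375 CPM and the stromelysin gene *Mmp3* at 66.7, 40.1, 88.8 and 153 CPM, and these were the 2 of 16 protease and inhibitor genes higher in RA at 7 dpf. RA_7d was the highest library in both. In comparison cells *Mmp13* had a log2 ratio of -0.21 at 7 dpf, against 1.45 in members, and *Mmp3* 2.21, against 1.71. Of 19 thrombospondins, tenascins and other matricellular genes, *Tnxb* and *Sparcl1* were higher and *Tnn* and *Smoc1* lower at 7 dpf. *Tnxb*, tenascin X, was at 206, 8.52, 82.9 and 64.3 CPM, and *Tnn*, tenascin N, at 21.4, 342, 67.8 and 108 CPM. Control_7d was the lowest library in *Tnxb* and the highest in *Tnn*.

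*Rbpj*, the nuclear mediator of Notch signalling and a gene of interest in the study, differed little between the libraries. It was at 129.8, 132, 143 and 138 CPM in members, and RA over control was 1.10 (0.942 to 1.28) at 4 dpf and 1.04 (0.969 to 1.12) at 7 dpf. Both of these intervals include 1. *Hes1*, a Notch target, was at 315, 229.6, 399 and 315 CPM, with ratios of 1.27 (1.15 to 1.39) and 1.37 (1.30 to 1.44), under the fold. None of the Notch genes tested, 5 at 4 dpf and 6 at 7 dpf, was past the fold between RA and control.

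The second comparison follows members from 4 to 7 dpf. In control, 94 of 3572 genes were higher at 7 dpf (2.63%) and 113 lower (3.16%). In RA, 78 of 3618 were higher (2.16%) and 75 lower (2.07%). The median log2 ratio over all genes tested was 0.085 and 0.034. Of 3331 genes tested in both conditions, 29 were higher and 21 lower in both, and 4 went opposite ways. Cartilage matrix genes led the rises, and *Angptl7* and *Prg4* the falls.

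*Col2a1*, the main collagen of cartilage, was at 19.2, 463, 17.2 and 463 CPM. Both 7 dpf libraries lay above both 4 dpf libraries, by 24.1 (19.1 to 31.0) in control and 26.9 (19.0 to 39.4) in RA as a ratio. Its UMIs sat in few members, since those with at least 20 UMIs made up 4.99% in control_7d and 2.61% in RA_7d and held 90.6% and 92.1% of the UMIs. A *Col2a1* UMI was found in 24.1%, 56.8%, 22.2% and 50% of members and in 0.0358%, 40.4%, 0.218% and 38.6% of myeloid cells, which should lack the gene. Comparison cells held 2475 and 988 CPM at 7 dpf, above the members. *Col9a3* was at 2.47, 112, 1.62 and 97.4 CPM. *Col9a1* had no UMI in control_4d and 1 in RA_4d, and was at 64.6 and 58.1 CPM at 7 dpf. *Hapln1*, a link protein of cartilage, was at 10.2, 82.6, 2.15 and 93.7 CPM.

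*Acan*, the aggrecan of cartilage and of compressed tendon, was spread over more members. It was at 64.5, 531, 39.8 and 216 CPM and in 17.9%, 78.6%, 8.89% and 44.8% of members, against 0.323%, 11.2%, 0.762% and 7.87% of myeloid cells. The 7 dpf libraries stood above the 4 dpf libraries, and RA_7d differed from control_7d by -1.26 on the log2 scale, against -1.36 in comparison cells. *Sox9*, the transcription factor of chondrogenesis, was at 40.3, 166, 34.5 and 94.1 CPM and in 35.2%, 74.3%, 15.6% and 48.9% of members, against at most 8.98% of myeloid cells. *Rbp4*, a retinol carrier, was at 21.4, 149.9, 10.8 and 67.4 CPM. Both 7 dpf libraries lay above both 4 dpf libraries in *Sox9* and *Rbp4*. Of the chondrogenic list, 8 of 12 genes in control and 5 of 10 in RA were higher at 7 dpf and none lower, with medians of 1.76 and 0.96. Over all genes tested, 2.63% in control and 2.16% in RA were higher. The list medians in comparison cells were 3.57 and 2.60.

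More collagens were higher than lower at 7 dpf in both conditions, while bone genes moved in control. Of all genes tested, 2.63% were higher and 3.16% lower in control, and 2.16% and 2.07% in RA. Of 24 collagens, 6 were higher and none lower at 7 dpf in control (*Col2a1*, *Col5a1*, *Col9a1*, *Col9a2*, *Col9a3* and *Col27a1*), and of 25 in RA 11 were higher and 1 lower (*Col22a1*). The medians were 0.40 and 0.91, against 0.57 and 0.55 in comparison cells. *Col5a1*, a chain of the collagen that starts fibrils, was at 586, 1482, 364 and 1015 CPM. Of 5 osteogenic genes, 4 were higher at 7 dpf in control (*Runx2*, *Alpl*, *Ibsp* and *Spp1*), and none was past the fold of the 2 tested in RA. The osteogenic medians were 1.48 in control and -0.34 in RA, and the difference between control and RA was not tested. Without the member with most UMIs of the gene in each library, *Col9a2* in control and *Col9a1* in RA were under 50 CPM but past the fold.

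The hemoglobin genes *Hba-a1* and *Hbb-bs* were also among the leading rises. *Hbb-bs* was at 50.5, 210.0, 5.38 and 279 CPM, and 1 member held 48.2% of its UMIs in RA_7d. Named after its values were seen, *Postn*, periostin, a matricellular protein of the callus, was at 1001, 3545, 999 and 2607 CPM in members and 3045, 4256, 2833 and 4079 CPM in comparison cells. *Mest*, an imprinted mesenchymal gene, was at 326, 939, 187 and 604 CPM, and *Itm2a*, a membrane protein of early chondrogenic cells, at 234, 830.4, 144 and 522 CPM. Both 7 dpf libraries lay above both 4 dpf libraries in *Postn*, *Mest* and *Itm2a*. A *Mest* UMI was found in 44.8%, 90.5%, 46.7% and 72.0% of members and 4.41%, 21.8%, 2.99% and 14.1% of myeloid cells, and an *Itm2a* UMI in 63.4%, 93.1%, 34.4% and 78.9% of members and 8.35%, 24.9%, 7.02% and 23.0% of myeloid cells. The myeloid shares of both genes were also higher at 7 dpf.

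*Angptl7*, an angiopoietin-like secreted protein, fell by 3.22 in control and by 3.67 in RA on the log2 scale. It was at 396, 33.6, 984 and 68.0 CPM in members and at most 2.25 CPM in comparison cells. A UMI was found in 53.8%, 10.7%, 54.4% and 28.3% of members and in at most 1.10% of myeloid cells. *Prg4*, whose levels are given above, fell by 2.71 and 2.40, and in comparison cells the log2 ratios were -2.70 and -2.03. The fall of *Prg4* was thus also seen in comparison cells, which held almost no *Angptl7*.

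*Prelp*, a leucine-rich proteoglycan, was at 750.1, 163, 974 and 293 CPM. *Apod*, a lipocalin, fell by 1.76 in control and 1.32 in RA, and *Vit*, vitrin, by 1.77 and 1.30. *Egr1* fell by 1.41 and 1.28, and *Thbs4* by 1.49 and 1.27. Both 4 dpf libraries lay above both 7 dpf libraries in each of these genes. Of the tendon differentiation genes, 7 of 13 in control and 3 of 15 in RA were lower at 7 dpf and none higher, with medians of -1.12 and -0.50. Over all genes tested, 3.16% in control and 2.07% in RA were lower. The list medians in comparison cells were 0.25 and 0.13. Past the fold in both conditions were *Thbs4* and *Chodl*, in RA *Col22a1*, and in control *Kera*, *Comp*, *Cilp*, *Cilp2* and *Wif1*. Without the member with most UMIs of the gene in each library, *Chodl* and *Col22a1* were under the fold in RA, at -0.97 and -0.79. The genes of the rule were not counted. Of them, *Fmod* fell from 4464.5 to 1422 CPM in control and from 6416 to 2708 CPM in RA. *Tnmd* fell from 1389.6 to 903 CPM in control and rose from 973 to 1222 CPM in RA. The difference between conditions was not tested.

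**Figure D4:**
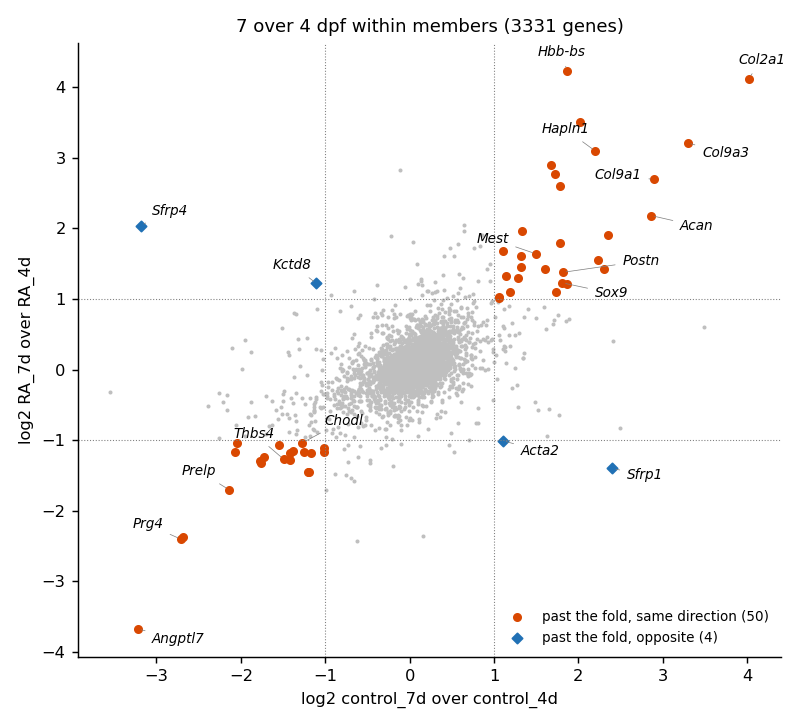
Log2 ratio of summed levels in members, 7 over 4 dpf, in control (x axis) and RA (y axis), for the 3331 genes tested in both, with dotted lines at the fold. Orange circles are the 29 genes higher and 21 lower in both conditions, with *Col2a1* at the upper right and *Angptl7* at the lower left, and blue diamonds the 4 that went opposite ways.

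Members were not uniform within a library. *Kera*, which the rule did not use, was found in 118, 167, 61 and 360 members and not in 27, 254, 29 and 100. Members with *Kera* had lower median depths, 24093.5, 25286, 17560 and 22433 UMIs against 32099, 26163, 21076 and 24303. *Dcn* was at 16294.5, 5426, 11714.5 and 7508 CPM in members with *Kera* and 3755, 1469.9, 2691 and 2721 CPM in those without. *Tnmd* was at 1622, 1308, 1284 and 1365 CPM with *Kera* and 559.8, 642, 452 and 704 CPM without. *Thbs4* was at 7228, 4081, 12673 and 4495 CPM with and 2250.4, 946, 4109 and 1848 CPM without. In these 3 genes the sum with *Kera* lay above the sum without in every library. *Tnmd* is a gene of the rule, and *Dcn* was also high in fibroblast precursors, at 4041 to 6729 CPM.

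Genes higher in members without *Kera* included those of progenitors and cartilage. *Runx2*, a factor of osteoblasts and chondrocytes, was at 202, 261, 184 and 229 CPM without *Kera* and 42.5, 110.1, 70.5 and 58.8 CPM with it. *Itm2a* was at 777, 1088, 298 and 1341 CPM without and 82.6, 431, 51.6 and 295 CPM with. *Postn* was at 2258, 3842, 1524 and 3273 CPM without and 649, 3084, 685 and 2423.5 CPM with. In these genes the sum without *Kera* lay above the sum with it in every library. *Col2a1* at 7 dpf was at 726 and 1648 CPM without *Kera* and 55.7 and 136 CPM with it. At 4 dpf *Col2a1* went the other way, at 13.8 and 8.64 CPM without *Kera* and 20.7 and 22.3 CPM with it.

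As a description, Spearman correlations with *Kera* were taken over the members of each library for 6369 genes found in at least 25% of members. Members of a library share its free RNA and differ in depth. Over 0.3 in every library were 30 genes and under -0.3 were 5. Most like *Kera* were *Dcn* (0.66 to 0.70 over the 4 libraries), *Abi3bp* (0.50 to 0.62), *Timp2* (0.48 to 0.59), *Sema3a* (0.47 to 0.62) and *Ccdc3* (0.46 to 0.64). *Runx2* had -0.52 to -0.36, and *Postn* -0.57 to -0.31.

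**Figure D5:**
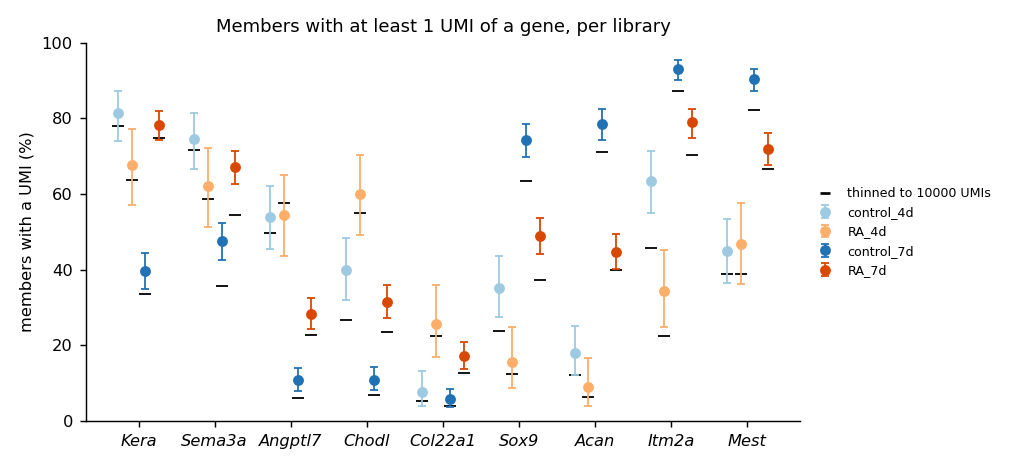
Percentage of members with at least 1 UMI of a gene per library, with exact Clopper-Pearson intervals, and black dashes for cells thinned to 10000 UMIs. *Kera* and *Sema3a* are lowest in control_7d, *Acan*, *Sox9*, *Itm2a* and *Mest* are highest there, and in *Col22a1* both RA libraries lie above both control libraries. The myeloid share of *Sema3a* was at most 1.77%, and those of *Itm2a* and *Mest* were highest in control_7d too.

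The comparison of RA and control was repeated on either side of this division, a choice made after seeing the data. At 7 dpf, 20 genes were higher in RA in members with *Kera*, where all members gave 50. The 17 shared genes were 34% of those called in all members and 85% of those called in members with *Kera*. Members without *Kera* gave 50 higher genes at 7 dpf, of which 23 were shared with all members (46% of either set). At 4 dpf 85 genes were higher in members with *Kera* and 166 in those without, where all members gave 78. *Col22a1* had log2 ratios of 2.35 at 4 dpf and 1.25 at 7 dpf with *Kera*, and of 3.05 and 1.64 without. *Chodl* had 1.37 and 1.18 with *Kera*, and 2.48 and 2.21 without. These 2 genes were past the fold on both sides at both times. *Acan* at 7 dpf had -1.19 with *Kera* and -0.57 without, and *Thbs4* 0.14 and 0.96.

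Of markers of other cells, the myeloid, neutrophil and pericyte lists summed lower in members than in comparison cells in every library. The rule removed *Ptprc*-positive cells from members but not from comparison cells, so the sums of leukocyte genes are a description only. Several other lists summed higher in some libraries. The 12 myeloid genes summed to 162, 310.2, 256 and 193 CPM in members, against 27258, 25008, 17330 and 25219 CPM in myeloid cells, and *Spp1* was the most abundant in every library. The 8 endothelial genes summed to 29.6, 49.2, 129 and 60.3 CPM, led by *Pecam1*, with *Emcn* at 0 in control_4d and *Vwf* at 0 in RA_4d. The 8 T and NK cell genes summed to 1.10, 0.726, 264 and 17.5 CPM, with *Cd3e* and *Cd3g* at 0 in every library. Nearly all of the RA_4d sum was *Ccl5*, at 262 CPM. Comparison cells held 641, 1420, 742 and 811 CPM of the myeloid genes and 85.6, 93.9, 68.9 and 122 CPM of the endothelial genes. Their T and NK sums were 7.19, 15.6, 8.25 and 9.99 CPM.

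The 8 Schwann cell genes summed to 256, 152, 236 and 214 CPM, led by *Pmp22*, with *Sox10* at 0 in both 4 dpf libraries. The 8 pericyte and smooth muscle genes summed to 235, 463, 545 and 268 CPM, led by *Acta2*, with *Rgs5* at 0 in control_4d. The 8 neutrophil genes summed to 14.5, 29.7, 98.5 and 21.3 CPM, and the 6 erythroid genes to 93.6, 417, 10.8 and 524 CPM, led by *Hbb-bs*. In comparison cells the Schwann cell sums were 180, 183, 174 and 258 CPM and the pericyte sums 713, 608, 566 and 287 CPM. Their neutrophil sums were 24.2, 110, 264 and 22.4 CPM and their erythroid sums 641, 648, 40.9 and 428 CPM. In members the T and NK, endothelial, neutrophil and pericyte sums were highest in RA_4d, and the erythroid sum lowest there. The part of these RNAs in the differences between libraries was not tested.

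The muscle list is given because *Col22a1* and *Chodl* are known from muscle or its attachment. Its 10 genes summed to 102, 41.5, 295 and 145 CPM in members, against 49.5, 45.3, 28.4 and 34.1 CPM in comparison cells. In members *Chodl*, itself on the list, made up 85.6, 29.7, 268 and 125 CPM of the sum. *Myod1*, the myogenic determination factor, was at 0 in control_4d, control_7d and RA_4d, and *Pax7*, of muscle stem cells, in control_7d and RA_4d. The other 9 muscle genes summed to 16.2, 11.9, 27.5 and 20.1 CPM, higher in RA than in control on both days, and their part in the RA differences was not tested. *Mki67*, a proliferation gene, reached at least 3 UMIs in 9, 19, 3 and 7 members, or 6.21%, 4.51%, 3.33% and 1.52%.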

How the data were processed

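Callus cells from 4 libraries were profiled by 10x Genomics 3′ v3.1 chemistry. Mapping to mm10 was done by the authors with Cell Ranger 7.0.1, who deposited raw UMI counts per gene and cell. The normalisation, integration and clustering that the study ran in Seurat were not used here, since cells were taken by a rule on raw counts. The cell filter of the study (4000 to 50000 UMIs, 2000 to 7000 genes, at most 8% mitochondrial UMIs) was applied, and members and comparison cells were taken by the rule above. Doublets were called with Scrublet in scanpy 1.11.5 and kept. The series text and the methods of the study differ in how many calluses made up each pool.

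UMIs were summed per library and cell group and scaled to a total of 1000000 (CPM). Log2 ratios were taken with 10 CPM added to each level, which understates changes of low genes. Genes of the rule were left out of all counts of genes past the fold and of the counts and medians of lists. Intervals (95%) are exact Clopper-Pearson intervals for shares and exact conditional intervals for ratios of counts, and cover counting error only. Cells were thinned to 10000 UMIs for shares of cells with a UMI, with shallower cells left out. With 1 library per condition no test between conditions was made. The code that counts genes past the fold was tested on simulated data with known folds, which says nothing of the conditions. Python 3.11.15, numpy 2.4.6, scipy 1.17.1, pandas 2.3.3 and matplotlib 3.10.9 were used.

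Named genes were the genes of the rule, the markers, up to 5 genes of a list, the 15 highest and 10 lowest against comparison cells, and the 8 leading rises and 8 leading falls that had the same direction in both pairs of libraries. A gene that this rule names and a marker of another cell type are not reported here. Alternatives were the denominator of the share, a looser cell filter (1000 UMIs, 500 genes, 15% mitochondrial UMIs), doublets left out, *Tnmd* thresholds of 1 and 4, thinning, 1 CPM added, TMM scaling, level minimums of 20 and 100 CPM, means over cells and *Ptprc*-negative comparison cells. A division of members by *Kera*, an *Fmod* threshold of 10 and leaving out the top cell of each gene were added after seeing the data. The members and gene lists were chosen with earlier results of these data known.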

Additional observations from a re-analysis of the deposited data

Results flagged for a closer look

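Barcodes outside the cell filter entered no comparison but the alternative with a looser filter, and 202 of them passed the rule.

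Several results went opposite ways in the 2 pairs of libraries that share a contrast, and with 1 library per condition the difference was not tested. RA over control at 4 and 7 dpf, as the median log2 ratio of a list in members, was -0.49 and 0.37 for small leucine-rich proteoglycans, -0.43 and 0.33 for the tendon sheath list, -0.69 and 0.83 for fibroblast precursor genes and -0.60 and 0.42 for callus fibroblast genes. From 4 to 7 dpf in control and RA, the median was -0.82 and 0.65 for the tendon sheath list and -0.74 and 0.83 for fibroblast precursor genes. Each of these pairs differed in sign, in members and in comparison cells. In comparison cells the medians of RA over control were, in the same order, -0.21 and 0.04, -0.49 and 0.60, -1.23 and 0.95, and -0.21 and 0.94. From 4 to 7 dpf they were -0.64 and 0.57 for the tendon sheath list and -1.12 and 0.57 for fibroblast precursor genes.

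Higher in RA at 4 dpf and lower at 7 dpf were *Sfrp1*, with log2 ratios of 2.49 and -1.31, *Ptx3*, with 2.05 and -1.27, *Tagln*, with 1.49 and -1.08, *Tnn*, with 1.31 and -1.58, and *Acta2*, with 1.03 and -1.08. The reverse held for *Sfrp4*, with -3.32 and 1.90, *Kera*, with -1.23 and 1.17, and *Tnxb*, with -1.22 and 2.00. The member with most UMIs of the gene in RA_4d, which was found for each gene on its own, held 45.0% for *Sfrp1*, 48.4% for *Tnn*, 40.1% for *Ptx3* and 71.9% for *Sfrp4*. Without the member with most UMIs of the gene in each library, the 4 dpf log2 ratio of *Tnn* was 0.86, under the fold, and that of *Acta2* turned to -0.11. *Sfrp1* was at 15.6, 126, 134 and 44.5 CPM in members of control_4d, control_7d, RA_4d and RA_7d. *Sfrp4*, the other secreted Wnt modulator, was highest in control_4d, at 263 CPM, where *Sfrp1* was lowest.

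From 4 to 7 dpf, in control and in RA, the log2 ratios were 2.40 and -1.40 for *Sfrp1*, -3.19 and 2.04 for *Sfrp4*, 1.10 and -1.01 for *Acta2* and -1.11 and 1.22 for *Kctd8*. Without the member with most UMIs of the gene in each library, the log2 ratio in RA was -0.74 for *Sfrp1*, under the fold, and turned to 0.21 for *Acta2*, the sign seen in control.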

How the results depend on the processing

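Of 24 alternative values of the share ratios, 21 lay within the counting interval of the main value. With *Col1a1*-high cells and members as the denominator, RA_7d over control_7d was 0.828, and 7 over 4 dpf turned to 0.905 in control and 0.961 in RA. Of 110 alternative counts of genes past the fold, 88 lay within 1.5 times the main count. With at least 100 CPM, fewer genes were tested: 19 were higher and 25 lower in members than in comparison cells, 47 higher and 20 lower in RA at 4 dpf, 25 higher at 7 dpf, 61 higher at 7 than at 4 dpf in control, and 49 higher and 48 lower in RA. With at least 20 CPM, 150 were higher in RA at 4 dpf and 118 lower at 7 than at 4 dpf in RA. TMM scaling gave 49 higher and 56 lower in RA at 4 dpf. In members without *Kera*, 166 were higher and 88 lower in RA at 4 dpf, 10 lower at 7 dpf, and 130 lower at 7 than at 4 dpf in RA. In members with *Kera*, 20 were higher and 10 lower in RA at 7 dpf, and 125 higher and 123 lower at 7 than at 4 dpf in RA. Without the top cell of each gene, 49 were higher in RA at 4 dpf and 48 lower at 7 than at 4 dpf in RA. The cause of these changes was not tested. Of 384 alternative list medians, 356 lay within 0.25 of the main value on the log2 scale. Of 816 alternative log2 ratios of the named genes reported here, 298 moved by more than counting error and none called turned in sign. No paired analysis was possible because each condition had 1 library.

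The limits are those of 1 pool per condition, without replicate animals. RA_4d had 90 members, and its values rest on few cells for genes found in few of them. Members were chosen by raw UMIs, and the rule is harder to meet in shallow cells.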
